A study of Mus musculus with 7 samples.

Results

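Contractile genes of smooth muscle and of myoepithelium were followed in mouse mammary glands kept in organ culture: Acta2, Actg2, Myh11, Cnn1, Tagln, Smtn, Mylk and Oxtr, together with Trp63, a transcription factor of basal epithelium. The 9 genes were chosen by name, and a probe was found for 7 of them through its RefSeq accession, out of 13971 genes named on the CodeLink mouse whole genome array. Mylk, which encodes myosin light chain kinase, and Oxtr, the oxytocin receptor, had no probe matched and are not analysed here. Acta2 had 2 probes, so the 7 genes were read by 8 of the 34967 gene probes, and 6 of the 8 were called good by the scanner software on all 7 arrays.

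There was 1 array for each of 7 groups of glands from 4-week-old female mice, so no test was possible and no ratio below has a replicate check. On 3 of the arrays RNA from 5 mice per group was pooled after 24 days of culture: wild-type C57 glands exposed to DMBA, αERKO glands that lack estrogen receptor α, and βERKO glands that lack estrogen receptor β, with both knockouts on a C57BL6/129SV background. The other 4 arrays held wild-type glands: C57 after 10 days and after 24 days without DMBA, and BALB/c after 24 days with and without vitamin D5, a vitamin D analogue. Whether the RNA of these 4 arrays was pooled is not given in the sources used here. Per the protocol, glands grew for 10 days in insulin (5 µg/ml), prolactin, aldosterone and hydrocortisone, met the carcinogen DMBA (2 µg/ml) for 24 h on day 3, and regressed for 14 days in insulin alone. The titles name DMBA for C57 only, and the methods give it for the 3 pooled groups. Whether BALB/c glands met DMBA, and how much vitamin D5 was used, is not given in the sources used here. Donors of the pooled groups were primed with EGF and progesterone, although the labels also describe estrogen with progesterone. For the other groups these sources do not settle the priming. The study describes the C57 DMBA and βERKO glands as bearing alveolar lesions induced by DMBA and the αERKO glands as free of them, so genotype and lesions cannot be told apart. Nor can genotype be told apart from strain background, since the wild-type controls were C57/BL6. One passage of the methods says that lesion-free αERKO glands gave no material for molecular analysis, while others include αERKO RNA in the array comparison.

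Myoepithelial cells form the outer, basal layer of mammary ducts and alveoli and squeeze milk out when oxytocin reaches its receptor. They use the same actins, myosin and actin-binding proteins as smooth muscle, so these transcripts can also come from vessel walls, pericytes and myofibroblasts, and in whole glands fewer cells of a type and less RNA per cell cannot be told apart. Many smooth muscle genes are switched on by serum response factor, SRF, which with its partner myocardin binds a sequence called the CArG box, whereas p63, the product of Trp63, maintains basal epithelial identity.

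The promoters of Acta2 and Cnn1 are shown because both genes were higher with DMBA, while in αERKO over the array labelled βERKO their ratios had opposite signs. They are RefSeq sequences of build GRCm38.p6, from 250 bases before to 50 bases after the transcription start, 5′ to 3′ on the gene's strand, at chr19:34255324-34255623 (minus strand) for Acta2 and chr9:22099003-22099302 (plus strand) for Cnn1, with capitals marking CArG boxes that carry 1 G or C in their centre.
Acta2: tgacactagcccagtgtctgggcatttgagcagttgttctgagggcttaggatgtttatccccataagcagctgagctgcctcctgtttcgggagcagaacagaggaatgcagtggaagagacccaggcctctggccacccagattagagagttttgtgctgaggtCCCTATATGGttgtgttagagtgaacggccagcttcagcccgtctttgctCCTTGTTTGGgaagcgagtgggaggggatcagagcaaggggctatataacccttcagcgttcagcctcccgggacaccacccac
Cnn1: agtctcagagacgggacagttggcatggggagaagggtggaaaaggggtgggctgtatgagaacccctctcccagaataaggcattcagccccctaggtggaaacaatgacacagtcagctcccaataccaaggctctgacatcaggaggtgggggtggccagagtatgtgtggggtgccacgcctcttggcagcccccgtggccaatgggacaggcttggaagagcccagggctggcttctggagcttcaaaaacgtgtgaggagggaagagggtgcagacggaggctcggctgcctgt
The Acta2 window held 2 such boxes, from -84 to -75 and from -34 to -25 relative to the start, both read on the gene's strand. The Cnn1 window held neither these nor a strict CArG box, which says only that the letters are not in these 300 bases. Of 32851 promoters of that length, 8.50% held a CArG box with 1 G or C in its centre and 1.63% a strict one, both strands searched. An MCAT element, CATTCC, lay on the opposite strand of Acta2 from -146 to -141 and overlapped neither box. Others were found in the Smtn window from -222 to -217 and in the Mylk window from -158 to -153, and 14.7% of all promoters held one. Promoters of 5 of the 9 genes were in the sequence table, and those of Smtn, Mylk and Oxtr held no CArG box of either kind.

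Levels are given as log2 of intensity over the median of the gene probes of the same array, where 0 is the median probe, and they are compared between arrays for 1 probe and never between probes. Median intensity was 39.1 to 53.0 over a local background of 80 to 83, and 68.4% to 74.2% of gene probes were called good. Technical error is given as an SD, taken for each comparison from how far paired probes of 1 transcript differed in their log2 ratios, and it lay between 0.23 and 0.61 in the comparisons below. As a check of the labels, the Esr1 probe was near background on the αERKO array (-3.76), but also on 4 of the other arrays, and was good only in C57 with DMBA (-1.02) and in BALB/c with vitamin D5 (-0.74). The Esr2 probe was highest on the array labelled βERKO (0.87, good) and near background on the C57 DMBA array (-5.88), which goes against its label, so it is called the array labelled βERKO. Whether either probe lies in the deleted part of its gene is not given in the sources used here. The αERKO array stood apart in skeletal muscle genes, whose 20 markers summed to 3006 times the array median against 43.8 to 101 on the other 6 arrays. As a check of the tissue, the basal keratins Krt5 (5.17 to 8.82) and Krt14 (2.77 at the lowest) were good on all 7 arrays, both lowest on the αERKO array.

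Acta2 encodes smooth muscle α-actin, the actin that defines myoepithelium in tissue sections. Its brighter probe (GE33404) read 6.68 on the C57 DMBA array, 5.10 on the αERKO array and 6.27 on the array labelled βERKO. It read 4.62 in C57 at 10 days, 4.83 in C57 at 24 days without DMBA, 5.52 in BALB/c and 5.18 in BALB/c with vitamin D5. The C57 DMBA array and the array labelled βERKO thus lay above all others. The αERKO array lay among the other 4 arrays, within 1 SD of its neighbours on both sides. The dimmer probe (GE1574003) had the same 3 highest arrays, with 6.07, 5.66 and 5.05 in the C57 DMBA, labelled βERKO and BALB/c arrays, and 4.29 on the αERKO array.

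Actg2 encodes the enteric smooth muscle γ-actin. It was the one gene of the 7 that the scanner placed near background on any array, at -2.52 in C57 at 10 days and -1.63 in C57 at 24 days without DMBA. It was good at 1.42 on the array labelled βERKO, 0.86 on the αERKO array and 0.84 on the C57 DMBA array, and neither step in this order was larger than the technical SD. It was lower but good in BALB/c, at 0.18, and with vitamin D5, at -0.49.

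Myh11 encodes smooth muscle myosin heavy chain. It read 5.00 on the C57 DMBA array and 4.62 on the αERKO array, and 2.97, 2.59, 2.05 and 1.58 in BALB/c, C57 at 24 days, BALB/c with vitamin D5 and C57 at 10 days. Its spot on the array labelled βERKO carried the quality flag M, which is neither the good nor the near-background call, and its reading there was the lowest of the 7. That reading is not used as a level or a ratio. Of the 10 probes flagged M on that array and good on the other 6, 1 read over 2-fold below the median of the others, and that probe was Myh11.

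Cnn1 encodes calponin, which binds actin and slows the myosin motor. Its levels were 5.79 on the C57 DMBA array, 5.03 on the αERKO array and 4.31 on the array labelled βERKO, then 3.20 in BALB/c, 2.98 in C57 at 24 days, 2.18 in BALB/c with vitamin D5 and 1.41 in C57 at 10 days. Its range, 4.38 on the log2 scale, was the widest of the 6 genes with no flagged spot. Only BALB/c and C57 at 24 days were neighbours in this order within 1 SD.

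Tagln encodes transgelin, or SM22α, another calponin-family protein on actin filaments. It read 5.71 on the C57 DMBA array, 5.57 on the αERKO array and 4.99 on the array labelled βERKO. The other arrays read 3.73 in BALB/c with vitamin D5, 3.65 in BALB/c, 3.45 in C57 at 24 days and 2.67 in C57 at 10 days. As for Cnn1, the 3 arrays of pooled mice lay above the other 4 without overlap, and the C57 DMBA and αERKO arrays did not differ beyond the SD. Smtn, encoding smoothelin, a cytoskeletal protein of contractile smooth muscle, varied least, from 2.42 in C57 at 24 days without DMBA to 3.43 on the C57 DMBA array. Its remaining levels were 3.21 on the αERKO array, 3.07 and 2.82 in BALB/c with and without vitamin D5, 2.55 on the array labelled βERKO and 2.52 in C57 at 10 days. Of its neighbours in this order, only BALB/c with and without vitamin D5 differed by more than the SD.

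Trp63 followed a different order from the contractile genes. Its levels were 4.66 in BALB/c with vitamin D5, 4.42 in C57 at 10 days and 4.03 in BALB/c, then 3.48 on the C57 DMBA array, 3.08 on the array labelled βERKO, 2.90 in C57 at 24 days without DMBA and 2.40 on the αERKO array. The array labelled βERKO did not differ from C57 at 24 days, nor that array from αERKO, beyond the technical SD. Chosen after their values were seen, 3 of the 7 genes, Cnn1, Tagln and Actg2, were higher on each of the 3 arrays of pooled mice than on each of the other 4, while the same held for 12.2% of 13244 genes good on at least 1 array.

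**Figure D1:**
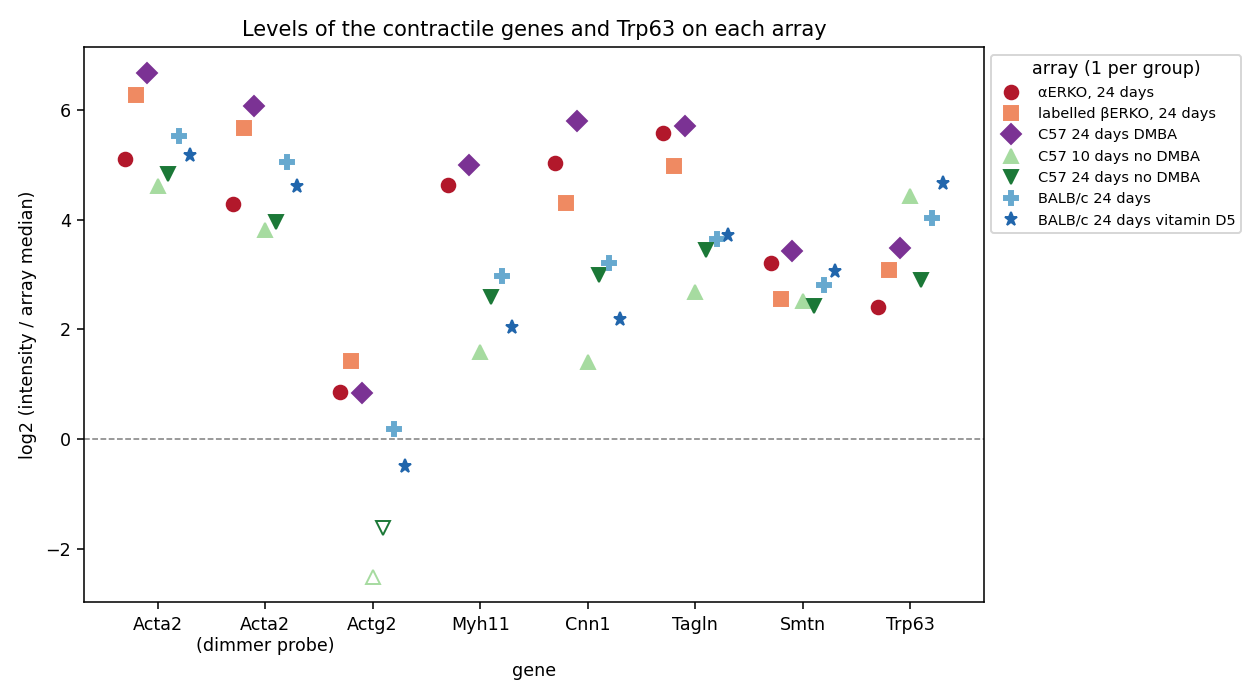
Levels of the 7 genes by array, as log2 of intensity over the array median of gene probes, with 1 point per array and 1 column per probe. Filled points were called good and open points near background, and the flagged Myh11 spot of the array labelled βERKO is left out. Cnn1 and Tagln were higher on the αERKO, labelled βERKO and C57 DMBA arrays than on the other 4, whereas Trp63 was lowest on the αERKO array at 2.40.

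C57 glands of 24 days with and without DMBA were compared to see how contractile genes stood after carcinogen exposure. The exposed glands were the wild-type pool of the knockout experiment, so DMBA and anything else that differed between that culture and the unexposed one cannot be told apart. All 7 genes were higher with DMBA, and 6 of them by over 2-fold, against a background of 11.6% of 12150 named genes over 2-fold higher and 7.79% over 2-fold lower. Their median log2 ratio was 2.25, also with Actg2 at its bound, and the median over all genes was -0.15. With cyclic loess in place of the array median, 70.6% of all genes over 2-fold were higher instead of 59.8%, and the same count of 6 was found.

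Cnn1 was 6.99-fold higher (log2 ratio 2.81, technical SD 0.31), Myh11 5.34-fold (2.42), Tagln 4.76-fold (2.25) and Acta2 3.61-fold (1.85). The dimmer Acta2 probe gave 4.30-fold. These differences were several times the technical SD, but whether they exceed the spread between mice or cultures cannot be told from 1 array per group. Actg2 was at least 5.49-fold higher, a bound because its spot was near background without DMBA, and normexp correction with an offset of 50 gave a log2 ratio of 1.01. Smtn lay at the threshold, 2.01-fold higher, and fell just short of it with normexp correction (log2 ratio 0.96). Trp63 was 1.49-fold higher (0.58). By size, the change of Cnn1 exceeded that of 99.2% of genes good on both arrays, and the change of Trp63 exceeded 64.9%.

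Gene lists were counted, and their medians taken, by the ratio as read, whatever the flag of the other spot. A counted gene can therefore have a bound within 2-fold, or a spot flagged neither good nor near background. Among other smooth muscle contractile genes, 8 of 21 were over 2-fold higher with DMBA and none lower, with a median of 0.58. Among genes good on both arrays, to which the highest and lowest of every list below are limited, the highest was Fhl1, a LIM protein also found in skeletal muscle (2.08), and the lowest were Dstn, an actin-severing protein (-0.59), and Tpm1, a tropomyosin (-0.85). The regulators stood otherwise. Of 11 genes of the SRF and myocardin system, 1 was over 2-fold higher and none lower (median -0.31). That gene was Gata6, a transcription factor, at least 2.76-fold higher because its spot was near background without DMBA. Of those good on both arrays, Yap1 (0.72) and Hey2 (0.70) were highest and Fhl2 (-0.49) and Tead1 (-0.58) lowest. The Myocd probe, for myocardin itself, was near background on all 7 arrays, and Srf lay between 1.93 and 3.11. Of 13 genes of oxytocin signalling and calcium release, none was over 2-fold higher and 1 lower (median 0.10). The 1 lower was Oxt, near background with DMBA (-3.29) and at -1.10 without. The lowest good signal with DMBA was -1.87, so the bound of Oxt was within 2-fold.

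Among basal and myoepithelial markers, 2 of 22 were over 2-fold higher and 6 lower, with a median of -0.20. Lowest were Krt17, a basal keratin (-2.09), and Procr, a basal stem cell receptor (-1.74), and highest were Snai2 (1.37) and Irx4 (1.15), both transcription factors. Of 13 epithelial genes that include p63 targets, 2 were over 2-fold higher and 3 lower. Neither of the 2 higher was good on both arrays. Without DMBA, the Krt15 spot was flagged neither good nor near background, and Trp73 was near background, with a bound within 2-fold. Among the 3 lower, the Cldn1 spot on the C57 DMBA array was flagged neither good nor near background.

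By their medians, marker lists of pericytes and vascular smooth muscle, fibroblasts, endothelium and adipocytes also stood higher with DMBA. Of 12 pericyte and vascular smooth muscle markers, 6 were over 2-fold higher and 1 lower (median 1.06), led by Pdgfrb (3.80, from -0.21 to 3.59) and Higd1b (2.39). The 1 lower was Abcc9, near background with DMBA (-4.78) and at -1.23 without, so its bound was within 2-fold. Rgs5, a pericyte gene singled out after its values were seen, was good on the C57 DMBA array (-0.40). It was near background without DMBA (-1.29), so its bound was within 2-fold. Of 18 fibroblast and myofibroblast markers, 15 were over 2-fold higher and none lower (median 2.62), led by Col3a1 (4.56) and Lum (4.30). Of 12 endothelial markers, 11 were higher and none lower (median 1.91), with Kdr at 3.51. Among the 11, Flt1 was near background without DMBA, with a bound within 2-fold. Of 14 adipocyte markers, 10 were higher and none lower (median 1.68). Their part in the result was not tested.

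**Figure D2:**
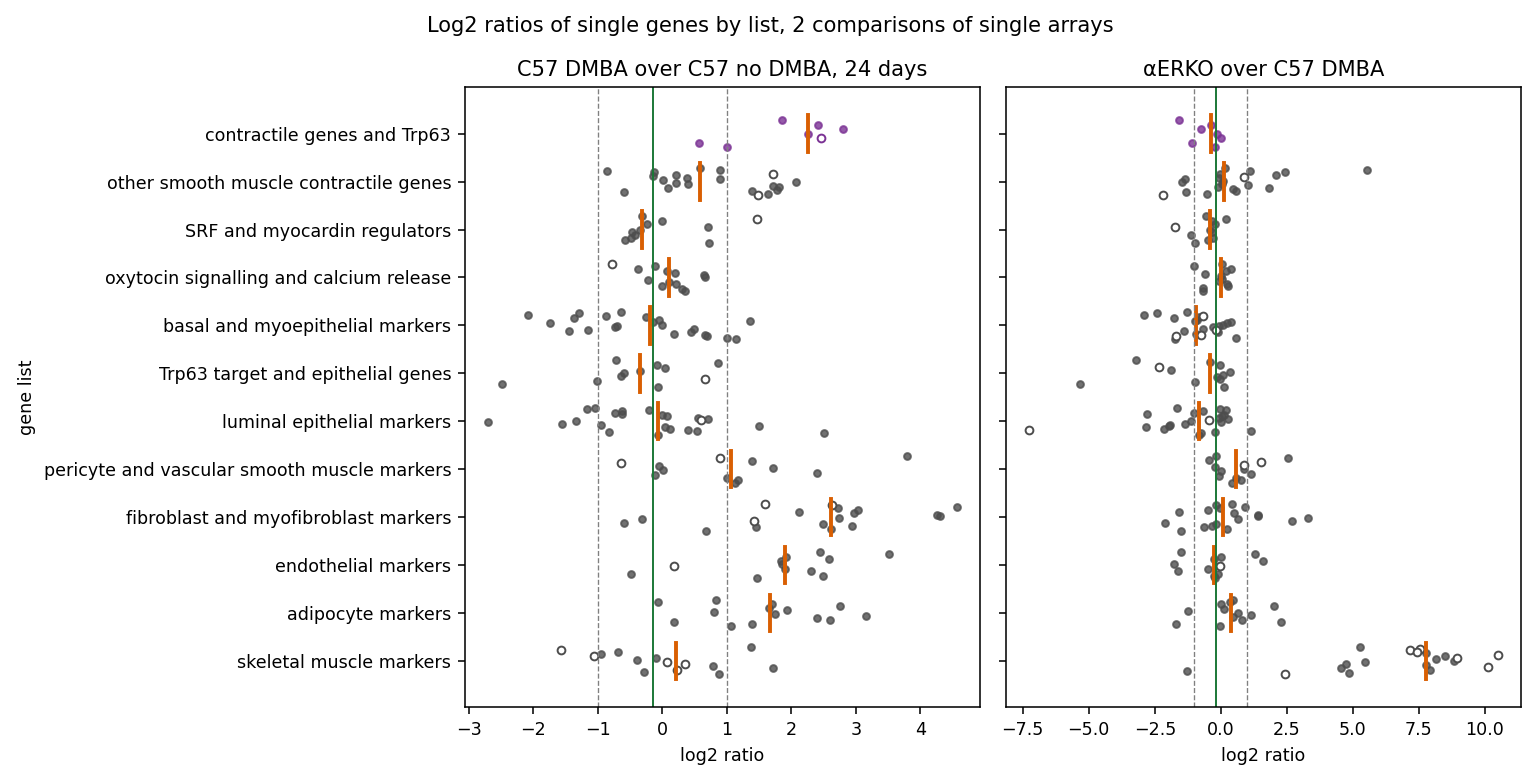
Log2 ratios of single genes by list in C57 glands of 24 days with over without DMBA (left) and in αERKO over C57 DMBA (right). Filled points were good on both arrays, open points are bounds against an array near background, orange bars are list medians, the green line is the median over all genes and dashed lines mark 2-fold. With DMBA the contractile genes lay at a median of 2.25 beside fibroblast markers at 2.62, while basal markers lay at -0.20, and on the αERKO array skeletal muscle markers lay at 7.76.

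Summed over the array, 5 contractile genes with usable spots on all of the 3 pooled arrays (Acta2, Actg2, Cnn1, Tagln and Smtn) reached 223 times the array median on the C57 DMBA array, 137 on that labelled βERKO and 126 on the αERKO array, and 39.6 to 75.8 on the other 4. Other smooth muscle contractile genes summed to 659 to 888 on the 3 pooled arrays and 372 to 492 on the other 4. The largest single part of each was Myl6, singled out after its values were seen. It read 8.1 to 8.6 on the 3 pooled arrays and 7.7 to 7.9 on the other 4. The 22 basal markers stood the other way round by their sum, 117 to 430 on the 3 pooled arrays and 508 to 1123 on the other 4. Sfn, singled out after its values were seen, read 6.48 on the array labelled βERKO and 7.51 in C57 at 24 days. Krt5 (7.10 and 7.07), Krt14 (6.54 and 6.48) and Krt17 (4.12 and 4.00) did not stand lower on the former. The list medians of these 2 arrays were 2.04 and 1.92. Fibroblast markers summed to 421 to 823 against 76.4 to 138, endothelial markers to 72.1 to 179 against 18.3 to 43.9, and adipocyte markers to 1901 to 3711 against 351 to 1300. Pericyte and vascular smooth muscle markers summed to 272 to 376 against 31.9 to 123. On the 3 pooled arrays most of that was Sncg, also singled out after its values were seen, and the other 13 genes of the list summed to 43.1 to 89.3 on the 3 pooled arrays and 22.4 to 29.6 on the others. None of these sums overlapped between the 3 and the 4 arrays. Nor did epithelial genes that include p63 targets, lower on the 3 pooled arrays (27.7 to 201 against 311 to 370). The largest single part on the other 4 arrays was Gpx2, also singled out after its values were seen. It read -0.04 to 7.09 on the 3 pooled arrays and 7.78 to 8.09 on the other 4. Luminal markers (661 to 1599 against 1589 to 2028) and SRF and myocardin regulators (101 to 172.5 against 103 to 166.5) did overlap. So did oxytocin signalling, actins and skeletal muscle markers. Of single genes, 12.2% of 13244 were higher on all 3 pooled arrays, and the share lower on all 3 is not given here. The part of these lists in the levels of the contractile genes was not tested.

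**Figure D3:**
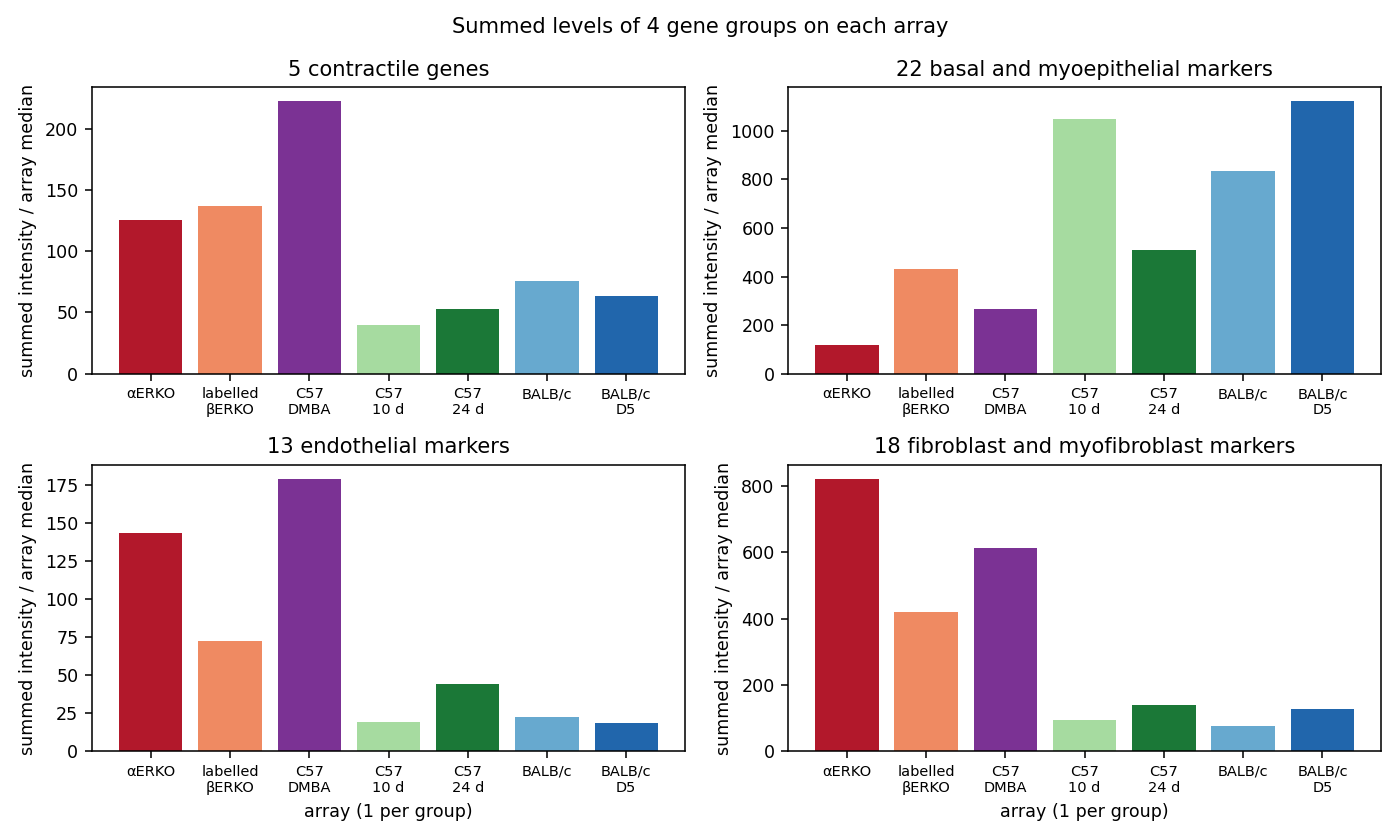
Summed intensity over the array median for 4 gene groups on each array, 1 bar per array. Contractile genes (126 to 223), endothelial and fibroblast markers were higher on the αERKO, labelled βERKO and C57 DMBA arrays than on the other 4. Basal and myoepithelial markers were lower by their sum, but their median was not lower on the array labelled βERKO (2.04) than in C57 at 24 days (1.92).

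The αERKO array was set against the C57 DMBA array to compare exposed glands without and with estrogen receptor α. These glands also differed in strain background and in lesions. No contractile gene was higher by over 2-fold on the αERKO array, and 2 of the 7 genes were lower, Acta2 and Trp63, against a background of 10.2% of 12189 genes over 2-fold higher and 15.2% lower. Acta2 was 2.99-fold lower (log2 ratio -1.58, technical SD 0.61), and 3.43-fold with the dimmer probe. Trp63 was 2.11-fold lower (-1.08), which quantile, 75th percentile and cyclic loess scaling brought to between -0.99 and -0.86. The rest lay within 2-fold: Cnn1 -0.76, Myh11 -0.38, Smtn -0.23, Tagln -0.13 and Actg2 0.02. Of these, only Cnn1 differed by more than the technical SD, and Tagln and Smtn changed sign with cyclic loess and Actg2 with normexp correction. The median of the 7 was -0.38, that of all genes -0.17, and the change of Acta2 exceeded that of 91.2% of genes.

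Acta2 was the only one of 5 measured actins over 2-fold lower on the αERKO array. Acta1, the skeletal muscle α-actin, stood at 7.81 against 2.54 on the C57 DMBA array, and at -0.68 to 4.86 on the other 5. Actc1, the cardiac α-actin, stood at 2.44 against 1.36, and Actb, the cytoplasmic β-actin, at 9.18 against 8.96. The coding sequences of the muscle actins are closely related, and whether a probe also binds the transcript of a paralog was not tested.

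Among other smooth muscle contractile genes, 7 of 22 were over 2-fold higher and 5 lower (median 0.11). Among the 7, Pgm5 was near background on the C57 DMBA array, with a bound within 2-fold. Among the 5, the Cald1 spot on the αERKO array was flagged neither good nor near background. The highest were Tpm1 (5.53) and Des (2.45), tropomyosin and desmin, which skeletal muscle also makes, and the lowest were Vcl (-1.47) and Csrp1 (-1.35). Of 19 skeletal muscle markers, 18 were over 2-fold higher (median 7.76), led by Atp2a1 (8.82) and Tnni2 (8.49). Their part in the values of contractile genes was not tested. Basal markers had 9 of 22 over 2-fold lower and none higher (median -0.93), with Krt17 (-2.91) and Krt14 (-2.42) lowest and Cd200 (0.59) and Lgr5 (0.40) highest. Among the 9, Cdh3 and Dsg3 were near background on the αERKO array, with bounds within 2-fold. The epithelial genes that include p63 targets had 5 of 13 lower and none higher, with Gpx2 (-5.34) and Perp (-3.22) lowest. Among the 5, the Cldn1 spot on the C57 DMBA array was flagged neither good nor near background. Luminal markers had 10 of 23 lower and 1 higher (median -0.84). Among the 10, Esr1 was near background on the αERKO array, with a bound within 2-fold. Pericyte and vascular smooth muscle markers had 4 of 13 higher and none lower (median 0.59), led by Rgs5 (2.53) and Higd1b (1.15). Among the 4, Abcc9 was near background on the C57 DMBA array, with a bound within 2-fold. Fibroblast markers had 4 of 18 higher and 3 lower. Of the SRF and myocardin regulators, 2 of 11 were over 2-fold lower and none higher, with Rock2, a kinase that keeps myosin phosphorylated, lowest among the good ones at -1.12.

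The array labelled βERKO was set against the same C57 DMBA array, so the comparisons of both knockouts share their control. By the 2-fold count 2 of 7 genes were lower and none higher, but 1 of these was the flagged Myh11 spot. Among the other 6, Cnn1 alone was over 2-fold lower, 2.79-fold (log2 ratio -1.48, technical SD 0.38), against a background of 7.29% of 12077 genes lower and 6.62% higher. Smtn (-0.89), Tagln (-0.72), Acta2 (-0.41, and -0.41 by the dimmer probe) and Trp63 (-0.40) were lower by more than the technical SD but within 2-fold, and Smtn passed it with cyclic loess (-1.02). Actg2 was higher, at 0.58. The median over the 6 genes was -0.57 and that of all genes 0.14.

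Other smooth muscle genes had 2 of 21 over 2-fold higher and 2 lower (median -0.27), with Tpm1 (1.97) and Cald1 (1.11) highest and Crip1 (-2.48) and Fhl1 (-1.77) lowest. Basal markers had 4 of 22 higher and 1 lower (median 0.38), led by Krt17 (2.21) and Procr (2.03). Stromal and vascular lists stood lower on this array: 4 of 11 pericyte and vascular smooth muscle markers, 7 of 18 fibroblast markers and 9 of 12 endothelial markers were over 2-fold lower and none higher, with Pdgfrb at -2.11 and Col3a1 at -2.53. Among the 9, Flt1 was near background on the array labelled βERKO, with a bound within 2-fold. The part of these lists in the lower Cnn1 was not tested.

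Set directly against the array labelled βERKO, the αERKO array differed over 2-fold in Acta2, 2.25-fold lower on the αERKO array (log2 ratio -1.17, technical SD 0.58), and in the flagged Myh11 spot. Acta2 fell within 2-fold, at -0.93, -0.99 and -0.76, with quantile, 75th percentile and cyclic loess scaling. The background was 20.2% of 12006 genes lower and 11.8% higher, so 1 of 6 genes lower was near it. The share of genes over 2-fold that were higher was 36.9%, and 47.4% and 50.6% with 75th percentile and cyclic loess scaling. Cnn1 (0.72), Smtn (0.66) and Tagln (0.59) stood higher on the αERKO array and Trp63 (-0.68) and Actg2 (-0.56) lower, each near the technical SD, and cyclic loess brought Cnn1 (1.11) and Smtn (1.02) past 2-fold. The median of the 6 was 0.01 against -0.30 for all genes. Basal markers had 12 of 22 lower and none higher, with Krt17 at -5.11 and Krt14 at -3.77, whereas pericyte and vascular smooth muscle markers had 7 of 13 higher and none lower, led by Heyl (2.66) and Pdgfrb (1.93). Among the 7, Abcc9 was near background on the array labelled βERKO, with a bound within 2-fold.

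**Figure D4:**
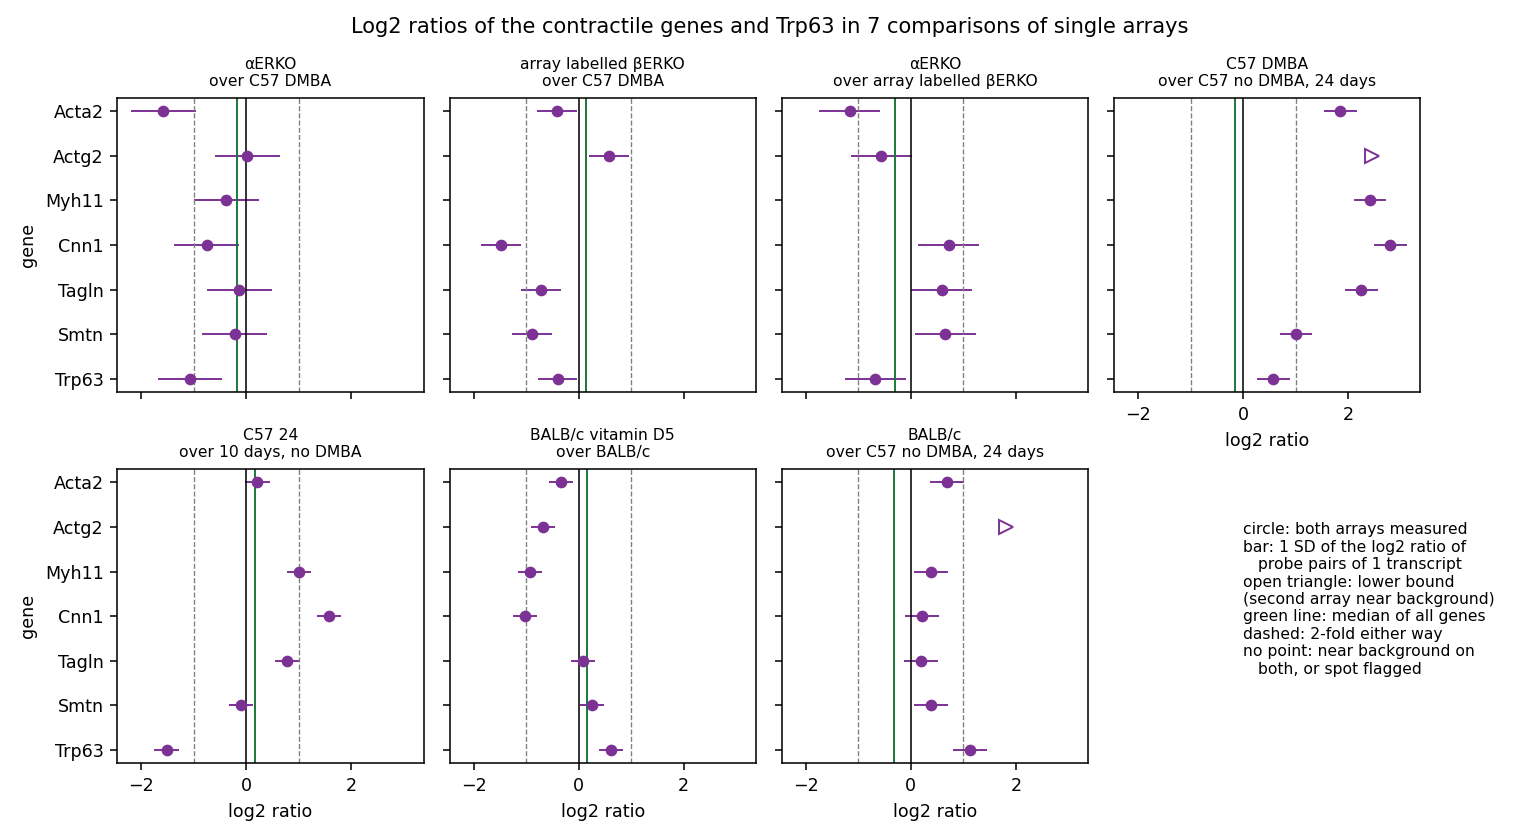
Log2 ratios of the 7 genes in the 7 comparisons, each of 1 array over 1 array. Circles are ratios with a bar of 1 technical SD, open triangles are lower bounds, the green line is the median over all genes and dashed lines mark 2-fold. With DMBA in C57 glands the contractile genes lay at or above 1.01 and Trp63 at 0.58, and at 24 over 10 days Trp63 was lower (-1.52) while Cnn1 was higher (1.58).

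C57 glands of 24 and of 10 days without DMBA, a pair that spans the regression phase, share their 24-day array with the DMBA comparison. Of 6 genes good on at least 1 array, 2 were over 2-fold higher at 24 days and 1 lower, with backgrounds of 5.47% of 11887 genes higher and 4.34% lower. Cnn1 was 2.99-fold higher (log2 ratio 1.58, technical SD 0.23) and Myh11 2.00-fold (1.00), at the threshold and under it with the 3 other scalings (0.94 to 0.95) and with normexp correction (0.77). Tagln was 1.72-fold higher (0.78). Acta2 (0.21) and Smtn (-0.10) differed by less than the technical SD, and Actg2 was near background at both times. Trp63 was 2.87-fold lower at 24 days (-1.52), a larger change than that of 98.1% of genes.

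Basal markers stood lower together with Trp63, 7 of 22 over 2-fold and none higher (median -0.49, all genes 0.16), with Bcl11b (-2.02) and Dsg3 (-1.83) lowest. Of other smooth muscle genes, 4 of 20 were higher and 1 lower, led by Fhl1 (4.00). The 1 lower was Pgm5, near background at 24 days, with a bound within 2-fold. Among the 4 higher, Synm was near background at 10 days, with a bound within 2-fold. Adipocyte markers had 11 of 14 higher and none lower (median 1.87), pericyte and vascular smooth muscle markers 3 of 12 and none lower, and endothelial markers 4 of 11 and none lower. Among the 3, Abcc9 was near background at 10 days, with a bound within 2-fold. The part of these lists in the higher Cnn1 was not tested.

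In BALB/c glands with vitamin D5, 1 of 7 genes was over 2-fold lower and none higher, against backgrounds of 4.39% of 12177 genes lower and 4.41% higher. Cnn1 was 2.03-fold lower (log2 ratio -1.02, technical SD 0.23), Myh11 1.90-fold (-0.93) and Actg2 1.60-fold (-0.68), each by more than the technical SD. With quantile, 75th percentile and cyclic loess scaling Myh11 passed 2-fold as well (-1.09 to -1.05), and with normexp correction neither did. Acta2 was at -0.34 and the dimmer probe at -0.44, while Tagln (0.08, negative with the 3 other scalings) and Smtn (0.26) lay within or just past the SD. Trp63 was higher, at 0.63. Basal markers had 2 of 22 higher and none lower. These were Krt17 (1.28) and Cd200, which was near background without vitamin D5, with a bound within 2-fold. After Krt17, the highest among those good on both arrays was Lamb3 (0.85). Other smooth muscle genes had 1 of 20 higher and 3 lower. The 1 higher was Lmod1, whose spot with vitamin D5 was flagged neither good nor near background. Among the 3 lower, Des was near background with vitamin D5, with a bound within 2-fold. Fibroblast markers had 4 of 18 higher and none lower, led by Lum (1.70) and Tnc (1.27).

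BALB/c glands without vitamin D5 were also set against C57 glands of 24 days without DMBA, the control array of the DMBA comparison, and strain cannot be told apart from a possible difference in DMBA. All 7 genes stood higher in BALB/c, and 2 of them over 2-fold, against a background of 6.22% of 12113 genes higher and 12.2% lower. The median over all genes was -0.31 and that of the 7 genes 0.39. With 75th percentile scaling the former was -0.10, the latter 0.61, and 52.3% instead of 33.8% of the genes over 2-fold were higher (45.2% with cyclic loess). Trp63 was 2.19-fold higher (log2 ratio 1.13, technical SD 0.33) and Actg2 at least 3.49-fold, with a log2 ratio of 0.63 under normexp correction. Acta2 was 1.61-fold higher by its brighter probe and 2.12-fold by its dimmer one, and quantile and cyclic loess scaling gave log2 ratios of 1.06 and 1.03 for the brighter. Smtn (0.39), Myh11 (0.39), Cnn1 (0.22) and Tagln (0.20) were closer to the technical SD. Basal markers had 4 of 22 higher and 1 lower (median 0.36), led by Krt5 (1.36) and Bcl11b (1.29). The 1 lower was Cd200, near background in BALB/c, with a bound within 2-fold. Other smooth muscle genes had 1 of 21 higher and 5 lower, with Fhl1 (-3.51) lowest. The 1 higher was Des, near background in C57, with a bound within 2-fold. Among the 5 lower, Synm was near background in BALB/c, with a bound within 2-fold. Adipocyte markers had 11 of 14 lower and none higher.

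Over the 7 arrays, the 5 genes whose levels were most like those of Acta2, out of 9338 genes good on every array, were Nmb (Pearson r 0.930), Creb3l1 (0.930), Foxb1 (0.921), Ppic (0.921) and Sh3pxd2b (0.910). Foxb1 lay below the median probe on every array, at -1.04 to -0.25, and varied over a range of only 0.785. For Cnn1, Tagln, Smtn and Trp63 the r with Acta2 was 0.747, 0.721, 0.464 and -0.172. Myh11 and Actg2 were not good on every array and have no r. These are descriptions over 7 single arrays, which differ in strain, treatment and cell content, and no p is given.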

How the data were processed

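RNA of cultured glands, pooled from 5 mice per group for C57 DMBA, αERKO and βERKO, was hybridized by the authors to 1-colour CodeLink Mouse Whole Genome arrays, 1 per group, and read with CodeLink Expression Analysis software. The deposited intensity is the spot mean less the local background median, with a quality flag per spot. A normalized intensity deposited beside it served as an alternative. The 7 columns of the series table were not used, since its rows carry no probe names.

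In Python 3.11.15 (numpy 2.4.6, pandas 2.3.3), intensities of 34967 gene probes were divided by their array median and log2 was taken, leaving out 320 negative and 300 positive control spots. RefSeq (GRCm38.p6) matched 14763 of 15553 probes with an accession, and a gene is given by its brightest probe. Genes good on at least 1 array of a pair were counted past 2-fold by the ratio as read, whatever the flag of the other spot. Where the other spot was near background, a fold is a bound against the higher of that spot and the lowest good signal of its array. The members, 12 other lists and the naming rule (the 2 highest and 2 lowest ratios of a list among genes good on both arrays) were chosen with earlier results of these data known. One gene of a list that met the naming rule is not reported here. Alternatives were quantile, 75th percentile and cyclic loess scaling and normexp correction (R 4.3.3, limma 3.58.1), the mean of a gene's probes, a 1.5-fold threshold, genes good on both arrays, and leaving out other flags. The code was tested on simulated data. The number of arrays limits the precision.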

Additional observations from a re-analysis of the deposited data

How the results depend on the processing

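No paired analysis was possible because each group has 1 array, and no replicate could be left out. Counts of genes over 2-fold were recomputed in 63 alternatives and stayed within 1.5 times in 45. For αERKO over C57 DMBA the count of 2 became 1 with quantile, 75th percentile and cyclic loess scaling. For the array labelled βERKO over C57 DMBA the count of 2 became 1 among genes good on both arrays, 1 without spots flagged neither good nor near background (an alternative chosen after seeing the data), and 4 at 1.5-fold. For αERKO over the array labelled βERKO the count of 2 became 1 with quantile and 75th percentile scaling, 1 among genes good on both arrays, 1 without flagged spots and 6 at 1.5-fold. With vitamin D5 the count of 1 became 2 with the 3 scalings, 0 with normexp correction and 4 at 1.5-fold. For BALB/c over C57 the count of 2 became 1 with normexp correction and among genes good on both arrays. The count of 6 with DMBA stayed within 1.5 times in every alternative run. Of 276 recomputed log2 ratios, 269 moved by less than the technical SD. The other 7 were, under normexp correction, Actg2 with DMBA (1.01), with vitamin D5 (-0.32) and in BALB/c over C57 (0.63) and Cnn1 at 24 over 10 days (1.24), and, in BALB/c over C57, Acta2 (1.06 quantile, 1.03 loess) and Tagln (0.53 loess). None over 2-fold changed sign, and 6 under it did. The cause was not tested.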
